A study of Homo sapiens with 6 samples.

Results

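The genes described here are 39 factors that build ribosomes, followed in SW480 cells with and without added TUSC3. They were taken by gene symbol from a list chosen by 2 considerations, their known place in ribosome assembly and the TUSC3 minus EV differences of these same arrays, in which GAR1, RRP9 and MRTO4 had been named. The differences below are therefore a description and support nothing by themselves. The array's annotation named a probe set, the group of probes that measures a gene, for 36 of the 39 factors, out of 23752 genes with a symbol. EBNA1BP2, GNL3 and PPAN were not analysed here.

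SW480 is an established line from a human colorectal adenocarcinoma. The cells were transiently transfected by a liposome reagent, in triplicate, with the pTarget expression plasmid carrying TUSC3 (3 arrays) or with the empty pTarget vector, EV (3 arrays). No wild-type or untransfected cells were used here, so every sample had gone through transfection. The sources used here do not give the share of cells that took up the plasmid or the time of harvest. TUSC3 encodes a subunit of the oligosaccharyltransferase of the endoplasmic reticulum, which attaches glycans to new proteins, and the comparison asked which transcripts differ when it is added.

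A ribosome begins in the nucleolus, where RNA polymerase I copies the ribosomal RNA genes into a long precursor. Small nucleolar particles, each a guide RNA with a set of core proteins, then modify that precursor: box C/D particles methylate ribose and H/ACA particles turn uridine into pseudouridine. Many assembly factors fold and cut the precursor and mount ribosomal proteins on it, in separate lines for the small and the large subunit, and rapidly growing tumour cells, colorectal ones among them, are known for high activity of this pathway, which the transcription factor MYC drives.

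All values are log2 expression levels from RMA, a method that corrects background, gives every array the same distribution and combines the probes of a probe set into 1 value. TUSC3 replicate 1 was stored with more digits than the others, with 22765 distinct values against 9648 on each of the other arrays. Levels of different probe sets are not compared with each other, and because RMA equalises the arrays, a shift shared by most genes could not be seen. In a culture, fewer cells of a kind and less RNA per cell cannot be told apart. TUSC3 itself read 13.13, 13.11 and 13.09 in the TUSC3 arrays, against 4.57, 4.33 and 4.63 in the EV arrays. The 12 colorectal epithelial markers had means of 3.76 to 12.58 in the TUSC3 arrays and 3.66 to 12.49 in the EV arrays. Their differences lay above 0 for 4 and below 0 for 8, with a median of -0.043 and a range of -0.25 for GPA33 to 0.13 for CDX2, and their part in the results was not tested. Among them EPCAM had a mean of 12.39 in the TUSC3 arrays and 12.44 in the EV arrays, and KRT20 4.26 and 4.23. Without a detection call these levels do not say which markers were present or absent. The 6 measured leukocyte markers had means of 2.66 to 7.04 in the TUSC3 arrays and 2.55 to 7.24 in the EV arrays. No epithelial, leukocyte, fibroblast or endothelial marker passed the test.

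None of the 36 factors passed the test across all genes (limma, adjusted p from 0.740 to 0.997). The share of all genes that passed was 0.00421%, which was TUSC3 alone. Group means of the factors ran from 6.78 to 12.70 in the TUSC3 arrays and from 6.61 to 12.67 in the EV arrays. The difference, TUSC3 minus EV, lay above 0 for 26 factors and below 0 for 10, where 50.4% of all genes lay above 0. Its median over the factors was 0.051, against 0.0013 over all genes, and it ran from -0.077 for POLR1B to 0.25 for GAR1. For all 36 factors the 95% interval lay inside a 1.5-fold change in either direction, as it did for 91.1% of all genes. The outermost bounds were a 1.38-fold higher level, for GAR1, and 0.835 of the EV level, for WDR12. The median SE was 0.069 over the factors, against 0.095 over all genes. The factors' intervals were thus narrower in general, and the share inside 1.5-fold is not a like-for-like comparison with all genes.

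**Figure D1:**
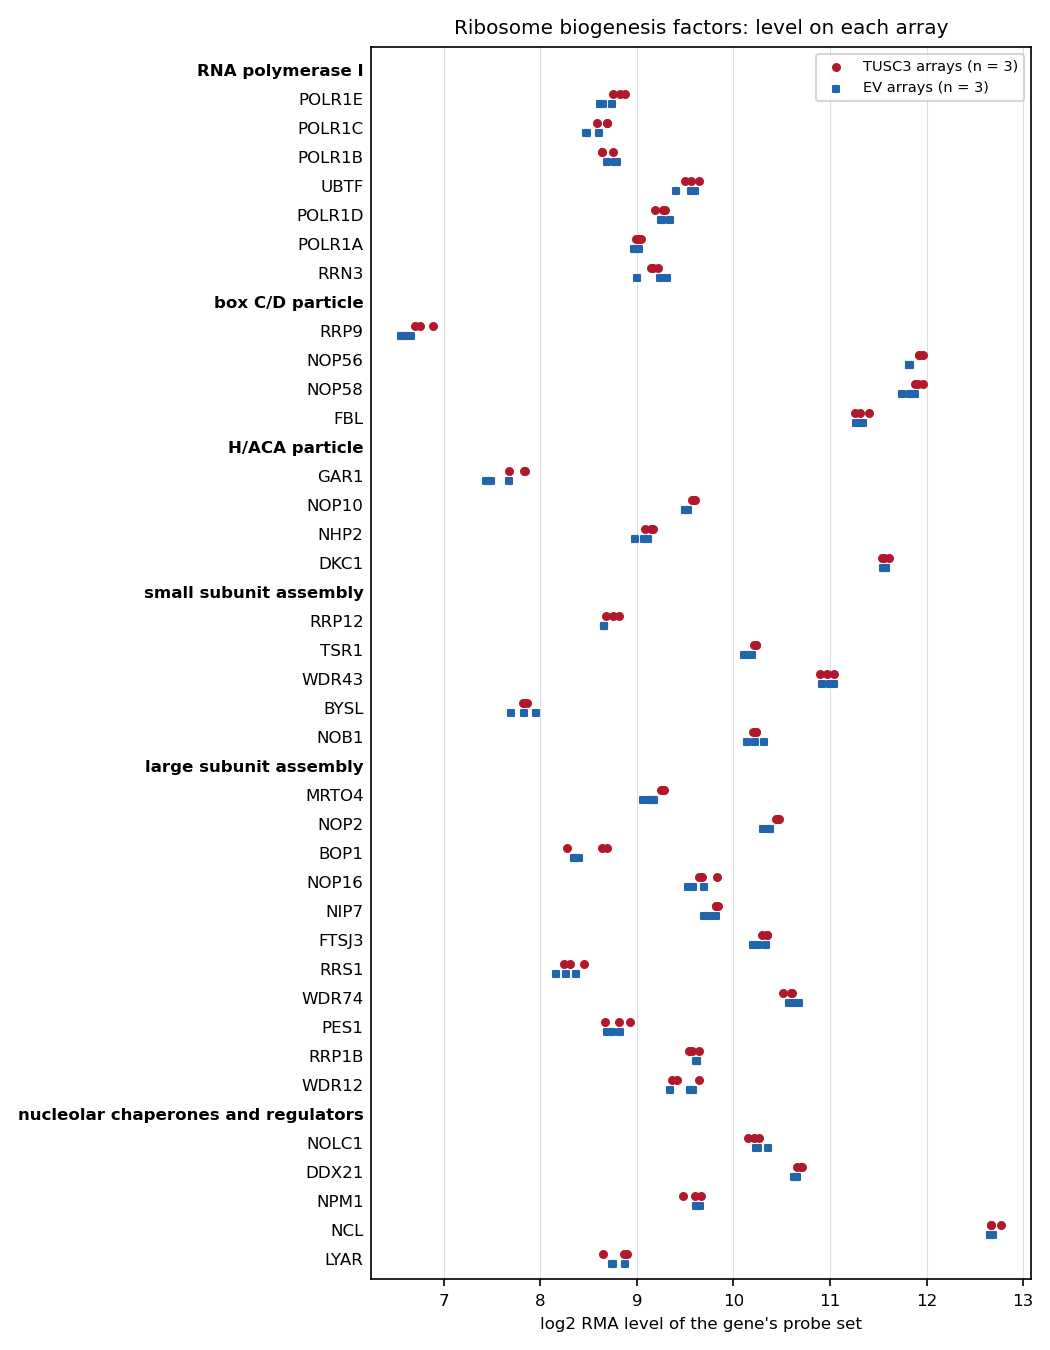
Log2 RMA level of each of the 36 measured ribosome biogenesis factors (horizontal axis) on each array, with the 3 TUSC3 arrays as circles above the 3 EV arrays as squares, and genes grouped by role. The circles and squares of a gene can be read against each other only, as with GAR1, where the TUSC3 arrays lie at 7.68 to 7.84 and the EV arrays at 7.44 to 7.68.

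**Figure D2:**
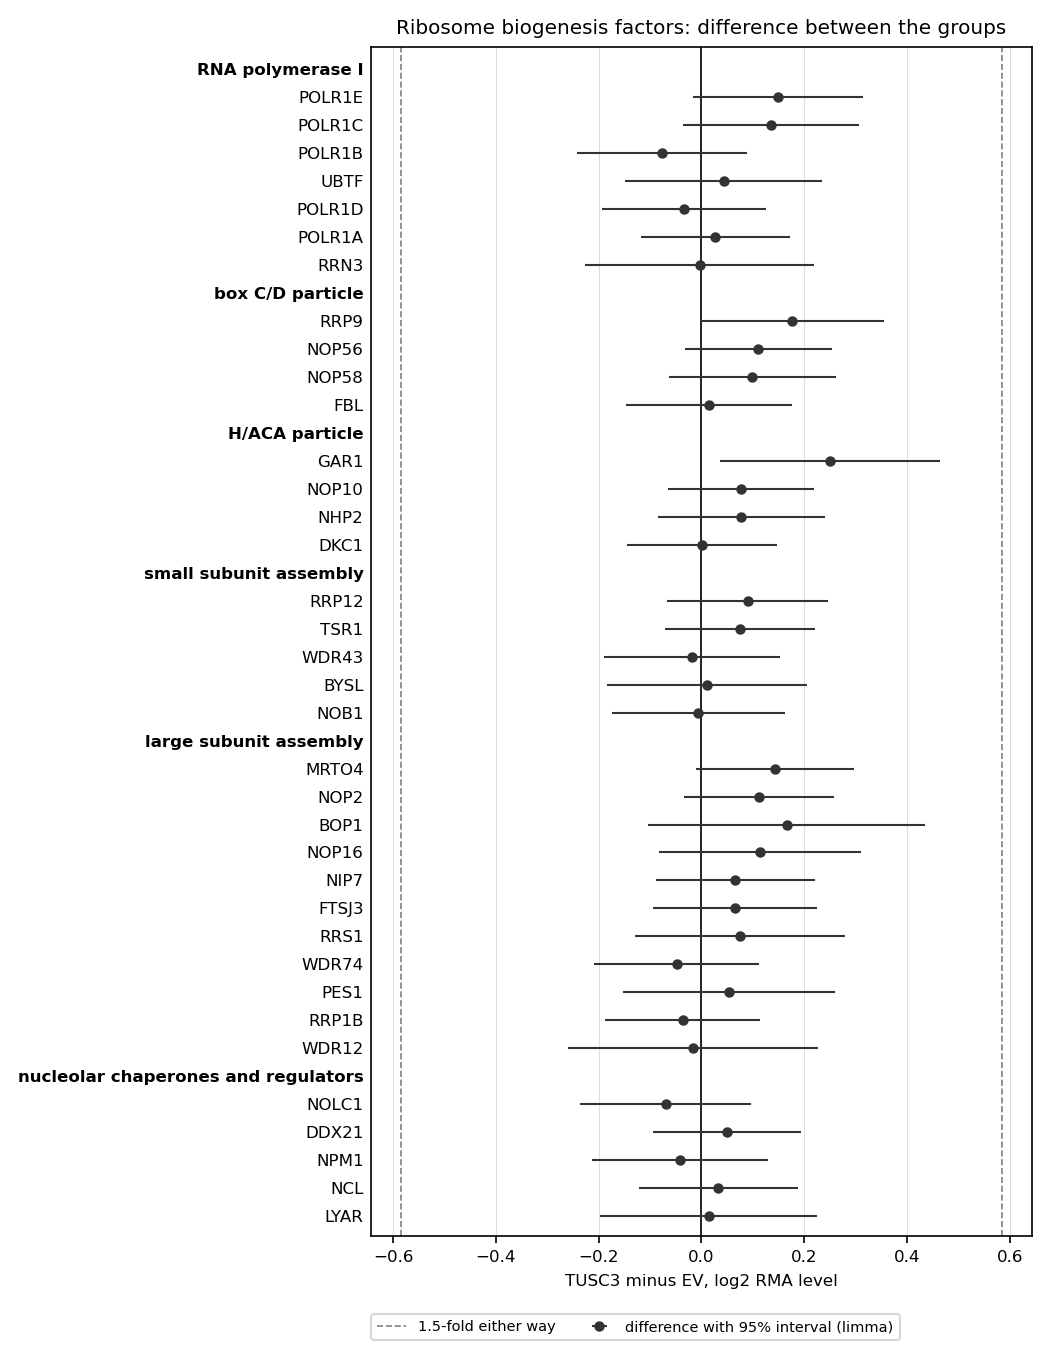
TUSC3 minus EV difference in log2 RMA level for the same 36 factors, with 95% intervals from limma (3 arrays per group). All intervals lie between the dashed lines at a 1.5-fold change, and the interval of GAR1, 0.036 to 0.46, leaves out 0.

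Some of the promoters of these genes carry a sequence feature that the choice of members did not use. The hexamer CACGTG, the canonical E-box that MYC and its partner MAX are known to bind, was found in the promoter windows of 11 of the 29 factors that RefSeq's promoter table holds, 37.9%, against 10.4% of 16976 genes named on the array. A window is 300 bases of GRCh38.p14, from 250 before a transcript's start to 50 after it. The hexamer reads the same on both strands, so 1 search covers both. By windows in place of genes the shares were 11 of 38, 28.9%, against 8.12% of the 23292 windows of genes named on the array and 7.26% of all 35116 windows. Among the 127 other ribosome biogenesis genes with a window the share was 28.3%, and among 47 cytosolic ribosomal protein genes it was 6.38%. POLR1E, NOP58, RRP12, BOP1, RRS1, RRP1B and NOLC1 had no entry.

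The matches lay close to the start: 10 of 12 were within 40 bases of it. Positions were not counted in the windows of other genes, so this closeness cannot be called particular to the factors. They are printed 5′ to 3′ on the gene's own strand in windows of 30 bases, with the E-box in capitals, so that the shared hexamer and its differing flanks can be compared.
GAR1, chr4:109815781-109815810, plus strand: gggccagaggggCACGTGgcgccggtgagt
RRP9, chr3:51941892-51941921, minus strand: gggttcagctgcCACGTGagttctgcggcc
MRTO4, chr1:19251807-19251836, plus strand: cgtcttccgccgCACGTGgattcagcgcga
NOP2, chr12:6568242-6568271, minus strand: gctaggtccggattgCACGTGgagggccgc
NOP10, chr15:34343130-34343159, minus strand: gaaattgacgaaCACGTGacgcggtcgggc
NOP10, chr15:34343289-34343318, minus strand: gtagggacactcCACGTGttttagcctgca
PES1, chr22:30591880-30591909, minus strand: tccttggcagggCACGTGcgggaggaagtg
DDX21, chr10:68956604-68956633, plus strand: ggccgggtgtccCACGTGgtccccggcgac
FBL, chr19:39846356-39846385, minus strand: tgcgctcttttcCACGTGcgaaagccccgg
LYAR, chr4:4290068-4290097, minus strand: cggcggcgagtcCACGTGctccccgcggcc
BYSL, chr6:41921515-41921544, plus strand: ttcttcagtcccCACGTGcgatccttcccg
WDR43, chr2:28894658-28894687, plus strand: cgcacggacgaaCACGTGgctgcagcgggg

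These motifs were chosen after the differences were known. Another 3 motifs were searched on both strands in the same windows. CCGGAAGT, the site of ETS family factors, was in 7 of the 29 factors, 24.1%, against 6.53% of genes named on the array. They were GAR1, NOP10, DDX21, POLR1B, POLR1C, RRN3 and WDR74, and NOP10 was the 1 factor with this site and the E-box in the same window. CTCGCGAG, a palindrome of CG-rich promoters, was in 2 of the 29, NPM1 and POLR1B, 6.9% against 1.67%. TATAAA, the TATA box, was in 0 of the 29, against 12.3% of genes named on the array. The genes named on the array were not matched to the factors for CG content, which bears on each of these shares and on that of the E-box. A match is a run of letters and was not tested as a binding site.

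The 250 bases before the start of 2 H/ACA particle genes are shown because they hold the ETS letters and, in NOP10, the E-box as well. Matches are in capitals, and ACTTCCGG is CCGGAAGT read on the other strand. For GAR1 the first of its 2 starts was taken, and its E-box above belongs to the second.
GAR1, chr4:109815260-109815509, plus strand: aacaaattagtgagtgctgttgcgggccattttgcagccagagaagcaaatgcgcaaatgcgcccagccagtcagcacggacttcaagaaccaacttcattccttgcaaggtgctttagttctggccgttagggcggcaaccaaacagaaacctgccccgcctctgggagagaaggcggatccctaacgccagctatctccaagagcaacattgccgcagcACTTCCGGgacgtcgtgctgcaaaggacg
NOP10, chr15:34343137-34343386, minus strand: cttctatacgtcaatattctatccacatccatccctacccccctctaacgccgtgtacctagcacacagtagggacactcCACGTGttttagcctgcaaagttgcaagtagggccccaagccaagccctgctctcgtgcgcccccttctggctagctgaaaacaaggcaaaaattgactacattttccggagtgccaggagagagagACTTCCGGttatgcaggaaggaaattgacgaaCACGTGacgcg

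Of the 11 factors with the E-box, 10 had a difference above 0, with a median of 0.054 and a range of -0.018 to 0.25. These 11 include GAR1, RRP9 and MRTO4, at 0.25, 0.18 and 0.14, which had been named from these same differences. The choice of members therefore bears on the values of this group, and none of those genes is in the next. Of the 18 with a window and no E-box, 11 lay above 0, with a median of 0.030 and a range of -0.077 to 0.14. The 7 factors with no entry had 5 differences above 0 and a median of 0.090, higher than that of the factors with the E-box. In the wider set of ribosome biogenesis genes 20 of 36 with the E-box lay above 0, with a median of 0.035, and 59 of 91 without it, with a median of 0.027. There the share above 0 was lower with the E-box than without it, the opposite order to the factors, while the median was higher with it, the same order. These are descriptions and the difference between them was not tested. MYC read 11.03, 11.13 and 11.03 in the TUSC3 arrays, against 11.04, 11.12 and 10.98 in the EV arrays. Its groups overlapped, with a difference of 0.012 and an interval of -0.16 to 0.18.

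**Figure D3:**
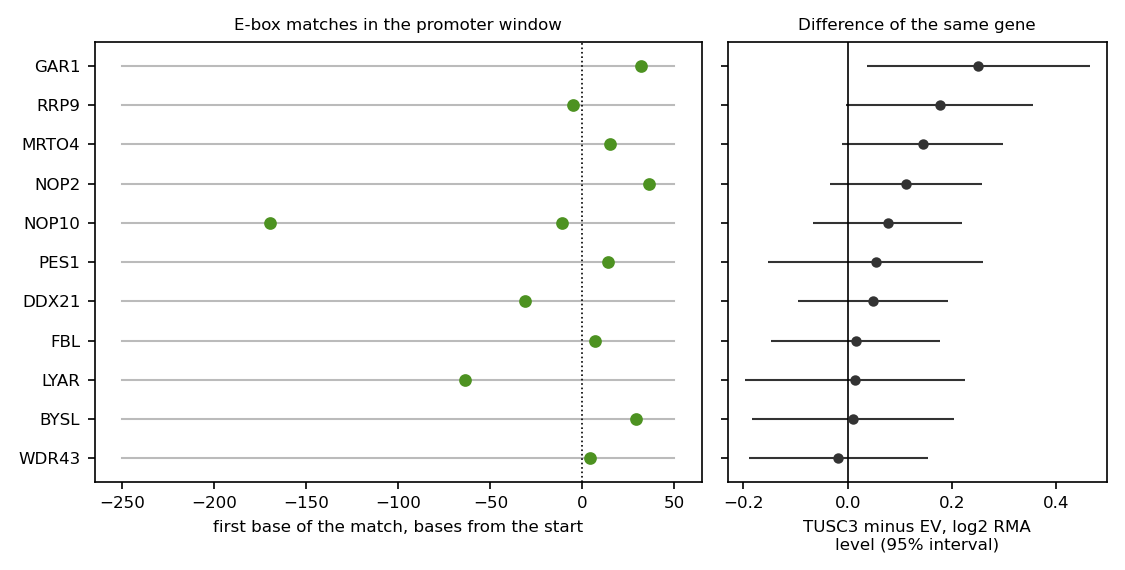
Left, position of each E-box match (points) in the promoter window of the 11 factors that hold one, in bases from the transcript's start. Right, the TUSC3 minus EV difference in log2 RMA level of the same gene with its 95% interval, where GAR1 is at 0.25 and WDR43 at -0.018.

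RNA polymerase I and its factors had 4 of 7 differences above 0 and a median of 0.027. POLR1E, a subunit of the polymerase's dissociable pair, read 8.75, 8.88 and 8.82 in the TUSC3 arrays, against 8.65, 8.62 and 8.74 in the EV arrays. All its TUSC3 arrays lay above its EV arrays, by a margin of 0.016 at the nearest, with a difference of 0.15 (SE 0.070, limma, adjusted p = 0.756). POLR1C, a subunit shared with RNA polymerase III, read 8.69, 8.59 and 8.69 in the TUSC3 arrays, against 8.48, 8.61 and 8.47 in the EV arrays. TUSC3 replicate 2 lay below EV replicate 2, so the groups overlapped, and the difference was 0.14 (interval -0.035 to 0.31).

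POLR1B, the second-largest subunit, was the factor with the lowest difference. It read 8.64, 8.64 and 8.75 in the TUSC3 arrays, against 8.69, 8.79 and 8.78 in the EV arrays. TUSC3 replicate 3 lay within the EV range, and the difference was -0.077 (interval -0.24 to 0.089). The largest subunit, POLR1A, differed by 0.027, and POLR1D, the other subunit shared with RNA polymerase III, by -0.034. UBTF, which binds the ribosomal RNA genes and opens their chromatin, had a mean of 9.57 ± 0.072 in the TUSC3 arrays and 9.52 ± 0.11 in the EV arrays (SD, n = 3 each). RRN3, which brings the polymerase to its promoter, had 9.18 ± 0.035 in the TUSC3 arrays and 9.18 ± 0.17 in the EV arrays (SD, n = 3 each). The subunits of the same enzyme thus had differences on both sides of 0, and every interval included 0.

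The 4 box C/D proteins among the factors all had differences above 0, with a median of 0.11. SNU13, a further core protein of the particle, was listed with the wider pathway and differed by -0.036 (interval -0.19 to 0.12). RRP9, a protein specific to the U3 particle that directs early cuts in the precursor, read 6.76, 6.89 and 6.71 in the TUSC3 arrays, against 6.66, 6.56 and 6.60 in the EV arrays. The groups did not overlap, and the difference was 0.18 (SE 0.076, interval -0.0024 to 0.35, limma adjusted p = 0.749). NOP56, a core scaffold protein, read 11.97, 11.92 and 11.92 in the TUSC3 arrays, against 11.83, 11.82 and 11.82 in the EV arrays. Its arrays were close within each group, SD 0.027 in the TUSC3 arrays and 0.0060 in the EV arrays, and a gap of 0.088 parted the groups. That gap was the widest among the 36 factors, and the difference was 0.11 (interval -0.032 to 0.25, adjusted p = 0.779).

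NOP58, the scaffold partner of NOP56, read 11.88, 11.91 and 11.97 in the TUSC3 arrays, against 11.88, 11.83 and 11.75 in the EV arrays. The lowest TUSC3 array lay above the highest EV array by 0.0013, less than the 0.00179 by which the arrays' stored distributions differ, and the difference was 0.099 (interval -0.062 to 0.26). FBL, fibrillarin, the methyltransferase of the particle, read 11.26, 11.40 and 11.31 in the TUSC3 arrays, against 11.27, 11.34 and 11.32 in the EV arrays. Here both the highest and the lowest array belonged to TUSC3, and the difference was 0.015 (interval -0.15 to 0.18). RRP9 and FBL both carry the E-box printed above, within 10 bases of the start.

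The H/ACA proteins also had 4 of 4 differences above 0, with a median of 0.077. GAR1, the core protein named for its glycine- and arginine-rich tails, read 7.84, 7.68 and 7.83 in the TUSC3 arrays, against 7.44, 7.48 and 7.68 in the EV arrays. TUSC3 replicate 2 and EV replicate 3 had nearly the same level, so the groups overlapped. The difference was 0.25, a 1.19-fold ratio (SE 0.091, interval 0.036 to 0.46, limma adjusted p = 0.740). GAR1 was the 1 factor with an unadjusted p under 0.05 on the higher side, where 3.41% of all genes were, and 0 factors were on the lower side, where 3.30% were.

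NOP10, the smallest of the core proteins, read 9.57, 9.58 and 9.61 in the TUSC3 arrays, against 9.50, 9.53 and 9.50 in the EV arrays. Its groups were parted by 0.042, with a difference of 0.076 (interval -0.066 to 0.22). NHP2, which contacts the guide RNA, read 9.08, 9.14 and 9.17 in the TUSC3 arrays, against 8.98, 9.11 and 9.07 in the EV arrays. TUSC3 replicate 1 lay below EV replicate 2, and the difference was 0.078 (interval -0.085 to 0.24). DKC1, dyskerin, the pseudouridine synthase itself, read 11.54, 11.56 and 11.61 in the TUSC3 arrays, against 11.55, 11.58 and 11.58 in the EV arrays. Its groups overlapped, with a difference of 0.0014 (interval -0.14 to 0.15). The catalytic proteins, FBL and DKC1, each had the lowest difference among the factors of their particle, though SNU13, at -0.036, lay below FBL. Both their intervals spanned differences of either sign, and this order was seen afterwards and was not tested.

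The guide RNAs that these proteins hold were also on the array, and some of their genes lie inside the factors' own genes. RefSeq's coordinates placed 15 measured guide RNAs, 12 box C/D and 3 H/ACA, within 6 of the factors: NOP56, NOP58, DKC1, TSR1, WDR43 and NCL. Of these guides 7 had a difference above 0 and 8 below, with a median of -0.0056, and 0 passed the test. Inside NOP56, which itself differed by 0.11, SNORD57 differed by 0.081, SNORD110 by -0.031 and SNORD56 by -0.0056. Inside DKC1, SNORA36A differed by 0.23 (interval -0.047 to 0.50, limma adjusted p = 0.770) and SNORA56 by -0.21. SNORA36A read 7.59, 7.25 and 7.17 in the TUSC3 arrays, against 7.09, 7.09 and 7.15 in the EV arrays. The groups of SNORA36A were thus barely parted, and TUSC3 replicate 1 stood highest. The highest and lowest differences of the 15 were 0.30 for SNORD53, inside WDR43, and -0.28 for SNORD11B, inside NOP58. The groups of both overlapped, with intervals of -0.11 to 0.71 for SNORD53 and -0.60 to 0.047 for SNORD11B. SNORD11B was dim, with means of 3.02 in the TUSC3 arrays and 3.30 in the EV arrays, where the lowest value on each array was 2.02. The sources used here do not say how far a guide's probe set is separate from its host's transcript. Over all 86 H/ACA guide RNAs the median difference was -0.023, with 36 above 0, and the smallest p-values were those of SNORA66 at -0.19 and SNORA31 at 0.73. Over all 219 box C/D guide RNAs the median was -0.025, with 91 above 0, and the smallest p-values were those of SNORD116-16 at -0.20 and SNORD37 at -0.30. In these sets 0 guide RNAs passed the test, and an unadjusted p under 0.05 was found for 1 H/ACA guide on the higher side and 1 on the lower, and for 3 box C/D guides on the higher side and 8 on the lower. Over all genes those shares were 3.41% and 3.30%, so both H/ACA counts and the higher box C/D count were below the share of all genes and the lower box C/D count was near it.

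Small subunit assembly factors had 3 of 5 differences above 0 and a median of 0.011. RRP12, which takes part in export of the small subunit's precursor, read 8.81, 8.76 and 8.68 in the TUSC3 arrays and 8.66 on all 3 EV arrays. The EV values had an SD of only 0.0030, the lowest of any factor, and the groups were parted by 0.014, with a difference of 0.090 (interval -0.067 to 0.25). TSR1, a late factor that keeps the immature subunit from translating, read 10.23, 10.21 and 10.24 in the TUSC3 arrays, against 10.11, 10.19 and 10.15 in the EV arrays. The groups did not overlap, and the difference was 0.076 (interval -0.071 to 0.22).

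WDR43, part of the early complex that couples transcription to processing, read 10.96, 10.89 and 11.04 in the TUSC3 arrays, against 10.92, 10.996 and 11.04 in the EV arrays. The groups overlapped nearly in full, and the difference was -0.018 (interval -0.19 to 0.15). BYSL, bystin, had a mean of 7.84 ± 0.023 in the TUSC3 arrays and 7.83 ± 0.13 in the EV arrays (SD, n = 3 each). NOB1, the nuclease that makes the last cut of the small subunit's RNA, had 10.22 ± 0.021 in the TUSC3 arrays and 10.23 ± 0.088 in the EV arrays (SD, n = 3 each). In both genes the TUSC3 arrays lay inside the EV range.

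Large subunit assembly factors had 8 of 11 differences above 0 and a median of 0.066. MRTO4, a relative of a ribosomal stalk protein that holds its place during assembly, read 9.27, 9.25 and 9.28 in the TUSC3 arrays, against 9.18, 9.06 and 9.13 in the EV arrays. A gap of 0.070 parted the groups, and the difference was 0.14 (SE 0.065, interval -0.010 to 0.30, limma adjusted p = 0.756). NOP2, a methyltransferase of the large subunit's RNA, read 10.46, 10.44 and 10.47 in the TUSC3 arrays, against 10.36, 10.38 and 10.31 in the EV arrays. Its groups were parted by 0.068, with a difference of 0.11 (interval -0.034 to 0.26). GAR1, RRP9, MRTO4, NOP2 and NOP10 head the E-box sequences printed above, which are listed in order of their differences, with the NOP10 pair together.

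BOP1, PES1 and WDR12 form a complex needed to cut the large subunit's precursor. BOP1 read 8.28, 8.69 and 8.64 in the TUSC3 arrays, against 8.35, 8.37 and 8.40 in the EV arrays. TUSC3 replicate 1 lay below every EV array and the other two TUSC3 replicates above every one, and the SD of 0.22 in the TUSC3 arrays was the widest of any factor. The BOP1 difference was 0.17 (interval -0.10 to 0.44), and it was 0.29 without TUSC3 replicate 1, 0.090 without TUSC3 replicate 2 and 0.11 without TUSC3 replicate 3. PES1 had a mean of 8.81 ± 0.13 in the TUSC3 arrays and 8.75 ± 0.072 in the EV arrays, and WDR12 9.47 ± 0.15 and 9.49 ± 0.13 (SD, n = 3 each). The members of this complex thus did not share an order of arrays: TUSC3 replicate 3 was the lowest TUSC3 array for PES1 and the highest for WDR12.

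WDR74, which acts in nucleolar large subunit particles, had the lowest difference among the large subunit factors. It read 10.60, 10.61 and 10.51 in the TUSC3 arrays, against 10.68, 10.62 and 10.57 in the EV arrays. The groups overlapped, with a difference of -0.048 (interval -0.21 to 0.11). Among the rest, NOP16 differed by 0.11, RRS1, which in yeast helps to bring in a small ribosomal RNA, by 0.075, NIP7 by 0.066, FTSJ3 by 0.065 and RRP1B by -0.037. NIP7 was the 1 gene of these whose groups did not overlap, by a margin of 0.00098 that is likewise under 0.00179. Single arrays moved these values by over 1.5 times: NOP16 was at 0.056 and RRS1 at 0.018 without TUSC3 replicate 2, and NIP7 and FTSJ3 were both at 0.034 without EV replicate 2. RRS1 was also at 0.023 without EV replicate 3, 0.12 without TUSC3 replicate 3 and 0.13 without EV replicate 2, and FTSJ3 was at 0.10 without EV replicate 3. RRP1B was at -0.067 without TUSC3 replicate 1 and -0.014 without TUSC3 replicate 2.

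Nucleolar chaperones and regulators had 3 of 5 differences above 0 and a median of 0.014. NOLC1, a chaperone of both classes of small nucleolar particle, read 10.15, 10.21 and 10.27 in the TUSC3 arrays, against 10.24, 10.25 and 10.35 in the EV arrays. Only TUSC3 replicate 3 reached the EV range, and the difference was -0.070 (interval -0.24 to 0.096). DDX21, an RNA helicase of the nucleolus, read 10.70, 10.66 and 10.71 in the TUSC3 arrays, against 10.65, 10.62 and 10.65 in the EV arrays. The groups were parted by 0.0039, with a difference of 0.049 (interval -0.095 to 0.19).

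NPM1, nucleophosmin, an abundant histone and ribosome chaperone, read 9.60, 9.67 and 9.48 in the TUSC3 arrays, against 9.62, 9.61 and 9.65 in the EV arrays. TUSC3 held both the highest and the lowest array, and the difference was -0.042 (interval -0.21 to 0.13). NPM1 has many near-identical pseudogene copies, and the sources used here do not say whether its probes read them. NCL, nucleolin, had a mean of 12.70 ± 0.061 in the TUSC3 arrays and 12.67 ± 0.014 in the EV arrays, and LYAR, a nucleolar growth regulator, 8.81 ± 0.13 and 8.79 ± 0.076 (SD, n = 3 each).

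For 11 of the 36 factors all 3 TUSC3 arrays lay above all 3 EV arrays, where 6.17% of all genes did, and for 0 factors all lay below, where 6.08% did. The 11 were POLR1E, RRP9, NOP56, NOP58, NOP10, RRP12, TSR1, MRTO4, NOP2, NIP7 and DDX21. Since the list was proposed with this contrast in view, nothing is read from that count. With 3 arrays on each side, the smallest p an exact two-sided permutation test allows is 0.1. The factors varied little between replicates, with SDs from 0.0030 to 0.22 and a median of 0.059.

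The arrays of a group did not carry the factors equally. Measured from each gene's mean over the 6 arrays, the factors' median stood at 0.012, 0.034 and 0.034 on TUSC3 replicates 1, 2 and 3, and at -0.040, -0.019 and -0.0093 on EV replicates 1, 2 and 3. The medians of the groups did not overlap, an order that the choice of members bears on. In the wider set of 147 ribosome biogenesis genes the array medians did overlap, at -0.0075, 0.018 and 0.025 on the TUSC3 arrays and -0.0064, -0.00041 and -0.017 on the EV arrays. TUSC3 replicate 1 was the highest TUSC3 array for 6 of the 36 factors and the lowest for 15, and EV replicate 1 was the lowest EV array for 16. The same counts among all 23752 genes were 8191, 8162 and 8233, in that order, and the factors' counts were not tested against them. Over all genes the medians of the arrays lay between -0.0047 and 0.0030.

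**Figure D4:**
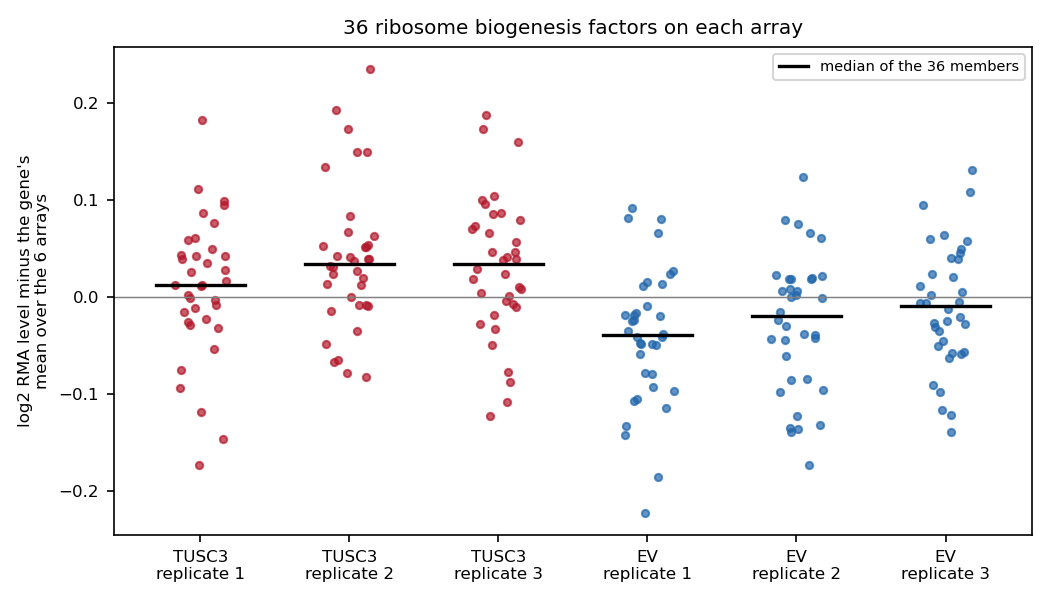
Level of each of the 36 factors on each array as the log2 RMA level minus the gene's mean over the 6 arrays (points), with the median as a bar, for TUSC3 replicates 1 to 3 and then EV replicates 1 to 3. The medians run from 0.012 to 0.034 in the TUSC3 arrays and from -0.040 to -0.0093 in the EV arrays, and the points of all arrays overlap.

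Other genes of the pathway, listed by their known function, numbered 151, of which 147 were measured. Of these 90 had a difference above 0 and 57 below, with a median of 0.027, and 0 passed the test in either direction (limma, adjusted p from 0.731 to 0.998). Without TUSC3 replicate 3 that median was 0.013. At an unadjusted p under 0.05 there were 3 on the higher side, BMS1, NOL6 and CCDC86, a smaller share of the 147 than the 3.41% of all genes there, and 0 on the lower side, where 3.30% of all genes were. BMS1, a GTPase of early small subunit assembly that has pseudogene copies its probes could also read, had 8.69, 8.71 and 8.63 in the TUSC3 arrays, against 8.37, 8.41 and 8.48 in the EV arrays. A gap of 0.16 parted its groups, with a difference of 0.26 (SE 0.066, interval 0.10 to 0.41, adjusted p = 0.731). NOL6, a protein of the same early particle, read 8.28, 8.26 and 8.34 in the TUSC3 arrays, against 7.98, 8.19 and 7.93 in the EV arrays, and its difference was also 0.26 (interval 0.056 to 0.46).

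By function, the other small subunit factors had 35 of 55 differences above 0 and a median of 0.042, and the other large subunit factors 33 of 54 and 0.025. In the large subunit set CCDC86 differed by 0.16 and NOL12 by 0.22. The list of other RNA polymerase I genes had 8 of 12 above 0 and a median of 0.046, with TCOF1, the nucleolar protein treacle, at 0.17. BAZ2B, a chromatin gene whose place in that list is uncertain, was at -0.16. Exosome and trimming genes had 10 of 15 above 0 and a median of 0.028, with the exosome subunits EXOSC1 at 0.16 and EXOSC6 at 0.15. Genes listed for assembly of the small nucleolar particles had 4 of 11 above 0 and a median of -0.032, with NUFIP1 at 0.082 and ZNHIT6 at -0.12. SNU13, itself a core protein of the box C/D particle, is counted in this list, at -0.036. None of the genes named here passed the test.

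The ribosome's own proteins and MYC's partners were set beside the factors. Of 55 measured cytosolic ribosomal protein genes 32 had a difference above 0, with a median of 0.035 and a range of -0.39 to 0.41, wider than the -0.077 to 0.25 of the factors. RPL31 differed by -0.38 and RPS16 by 0.17. Among 11 genes of MYC and its network 4 had a difference above 0, with a median of -0.025. MXI1, a repressor that competes with MYC for MAX, differed by -0.16 (interval -0.33 to 0.015), and MXD1, a repressor of the same kind, by -0.063. In both sets 0 genes passed the test, and at an unadjusted p under 0.05 there were 5 ribosomal protein genes, 3 higher and 2 lower, and 0 genes of the MYC network. The ribosomal protein counts were near the 3.41% higher and 3.30% lower of all genes.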

How the data were processed

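Per the submitters' processing notes, the authors processed the arrays with RMA, and the deposited values are log2 levels, 1 per probe set and array. RMA's version and settings: not given in the sources used here. In all, 25088 probe sets were deposited, of which 23752 had 1 symbol, 0 several and 1336 none. Sorted values differed between arrays by at most 0.00179. No detection call was used, and precision is limited by having 3 arrays per group.

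Differences were fitted over all 23752 genes in R 4.3.3 by the lmFit and eBayes functions of limma 3.58.1, two-sided, with Benjamini-Hochberg adjustment, a threshold of 0.05 and 95% intervals, and the procedure was tested on simulated data. The labels do not say that replicates came from separate cultures, so the p-values may reflect technical spread alone. The members, gene lists and motifs were chosen with earlier results of these data known. Array values were given for the 3 members of each role with the smallest p, all members of roles with 4, and the lowest difference of each role; wider and context lists gave the 2 genes with the smallest p, and MYC. Guide RNAs, E-box genes, markers and SNU13, named beside these, were chosen after their values were seen. CTCGCGAG replaced a longer form of the palindrome that matched no member. Promoters and gene positions came from RefSeq on GRCh38.p14. Deviations from the group means correlated at -0.014, 0.043 and -0.011 for same-numbered replicates, so numbers were not taken as pairs.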

Additional observations from a re-analysis of the deposited data

How the results depend on the processing

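The values were recomputed after a further quantile normalization, with array medians equalised, after leaving out the 30% of genes with the lowest mean, with a trended and robust variance prior, with weights per array, with replicate numbers as a block, without each array in turn, and over all probe sets for the counts. No factor passed in any of them. With the trended and robust prior 2 genes passed over all genes in place of 1, and the cause was not tested. The replicate block let 1 gene and 0 factors pass. Each replicate number has 1 array of each group, so the block cannot change the factors' median difference of 0.051. Without 1 array that median ran from 0.045 to 0.062, and that of the wider set from 0.013 to 0.035, lowest without TUSC3 replicate 3. All 432 single-gene values moved by less than the spread between replicates, but for most settings this was fixed in advance. Leaving out 1 of a group's 3 arrays cannot move a difference by that much. Leaving out the dimmest genes, changing the prior or adding the block does not move it at all. In 12 factors with small differences, 27 of the 432 values changed sign. GAR1 ran from 0.20 to 0.32. Differences this small are near the limit of 3 arrays per group.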
